A study of Mus musculus with 6 samples.

Results

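This is an account of 38 mouse genes of fatty acid oxidation, ketogenesis and PPARa target regulation in primary murine hepatocytes of strain C57BL/6J, out of 41388 genes with a row in the deposited table. The genes were taken from a list of names and found by their Ensembl identifiers, and each of the 38 had 1 row. RNA was sequenced in 6 libraries. In 3 of them (b-gal replicates 1, 2 and 3) the hepatocytes had received adenovirus encoding beta galactosidase, a bacterial enzyme used as a control, and in the other 3 (Aloxe3 replicates 7, 8 and 9) adenovirus encoding ALOXE3, an epidermal-type lipoxygenase. All cultures had been freed from liver with collagenase, kept overnight in growth medium, exposed to about 1000000 viral particles per 1000000 cells and harvested 24 h later, so both groups carried a virus and no library was free of it. The promoter that drove the transgenes and the number of mice behind the cultures are not given in the sources used here, and the p-values measure the spread between these libraries, which may be technical.

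Hepatocytes burn fatty acids after activation to acyl-CoA esters, which the carnitine shuttle carries into mitochondria and which the beta-oxidation spiral then shortens. Peroxisomes shorten very long and branched chains by a parallel set of enzymes. In fasting, liver turns the resulting acetyl-CoA into ketone bodies, and the nuclear receptor PPARa, paired with RXR on repeated AGGTCA half-sites, switches on most of these genes. The comparison asked whether forced Aloxe3 expression moved this program in cultured hepatocytes.

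The transgene was seen in the libraries labelled for it. Aloxe3 itself had 2.04, 2.06 and 1.74 RPKM (reads divided by gene length in kilobases and by library size) in the b-gal libraries and 42.3, 45.8 and 56.3 RPKM in the Aloxe3 libraries, and the groups were far apart. The log2 fold change was 4.05 ± 0.10 (SE; limma adjusted p = 4.74e-06), and the exact permutation test gave p = 0.1, the smallest that 3 libraries against 3 allow. Library sizes were 25521908 to 32431318 reads, with the Aloxe3 libraries from 25521908 to 30399198. Alb, the main secreted hepatocyte protein, stood between 4362 and 4552 RPKM and the transcription factor Hnf4a between 25.4 and 29.3 RPKM. Of the 8 hepatocyte markers tested, 1 fell at an adjusted p under 0.05 (12.5%, where 0.0394% of all tested genes fell), Ttr, a thyroid hormone carrier secreted by liver, with 118.9, 131.4 and 122.1 RPKM with b-gal and 99.4, 101.5 and 100.6 RPKM with Aloxe3 (log2 fold change -0.30 ± 0.04, SE; limma adjusted p = 0.0448, and 0.0802 to 0.148 with a library left out). With voom, a fit to read counts, 2 passed (25%, where 1.37% of all genes did), Ttr and Cps1, a urea cycle enzyme that was higher with Aloxe3 (log2 fold change 0.33 ± 0.07, SE; limma adjusted p = 0.161). Pck1, a gluconeogenic enzyme of fasted hepatocytes, stayed at or below 0.106 RPKM and Tat, a tyrosine-degrading enzyme, at or below 0.661 RPKM. Markers of other liver cells were present at the same time: the 5 cholangiocyte markers summed to 1509 to 1593 RPKM with b-gal and 1577 to 1716 RPKM with Aloxe3, nearly all of it Spp1, and the 6 endothelial markers to 24.6 to 28.7 RPKM with b-gal and 24.5 to 28.6 RPKM with Aloxe3. The 6 stellate cell markers summed to 3.55 to 3.78 RPKM with b-gal and 3.15 to 3.62 RPKM with Aloxe3, with 1 of them, Lrat, listed at 0 in every library, and the 5 adipocyte markers summed to at most 0.157 RPKM. The 6 Kupffer cell markers summed to 150 to 153 RPKM with b-gal and to less, 133 to 146 RPKM, with Aloxe3, nearly all of it Cd68, with Clec4f and Vsig4 near 0. Of the 4 tested, 0 passed the adjusted threshold and 1 was lower at an unadjusted p under 0.05 (25%, where 5.42% of all tested genes were lower). The part of these other cells in the results was not tested.

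None of the 38 genes changed past the threshold of an adjusted p of 0.05 with limma. A mean of at least 0.5 RPKM over the 6 libraries was needed for the test, which 35 of the genes met (Acot1, Acot3 and Fgf21 did not), and 0 of these 35 were called, where 0.394% of the 12693 genes tested were (0.355% higher and 0.0394% lower with Aloxe3). At an unadjusted p under 0.05, 3 were higher with Aloxe3 (Bdh1, Cpt1a and Acsl1; 8.57%, where 7.31% of all tested genes were higher) and 2 were lower (Etfb and Ech1; 5.71%, where 5.42% of all were lower). With all 6 libraries both shares were near those of all genes, while without Aloxe3 replicate 9 the higher share was 20% (where 7.46% of all were). Without Aloxe3 replicate 7, 2 were higher and 3 lower. With voom on the derived read counts, where 1.37% of all genes were called, 1 of the 35 was called, Bdh1.

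The 35 log2 fold changes, taken on log2(RPKM + 1), ran from -0.13 for Etfb to 0.28 for Bdh1. This scale understates differences of low genes. With 0.1 added in place of 1, the log2 fold change of Ppara was 0.10 in place of 0.06, that of Acot4 0.07 in place of 0.03 and that of Acaa1b 0.07 in place of 0.04. Their median was -0.00027, against 0.0049 over all tested genes. Values below 0 made up 18 of 35 (51.4%, where 47.6% of all tested genes were below 0). The 95% intervals of all 35 fold changes lay within -0.28 and 0.42, so for each of these genes a change of 0.5 or more on this scale was outside its interval. Because RNA came from whole cultures, fewer cells that express a gene and less RNA per cell cannot be told apart.

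**Figure D1:**
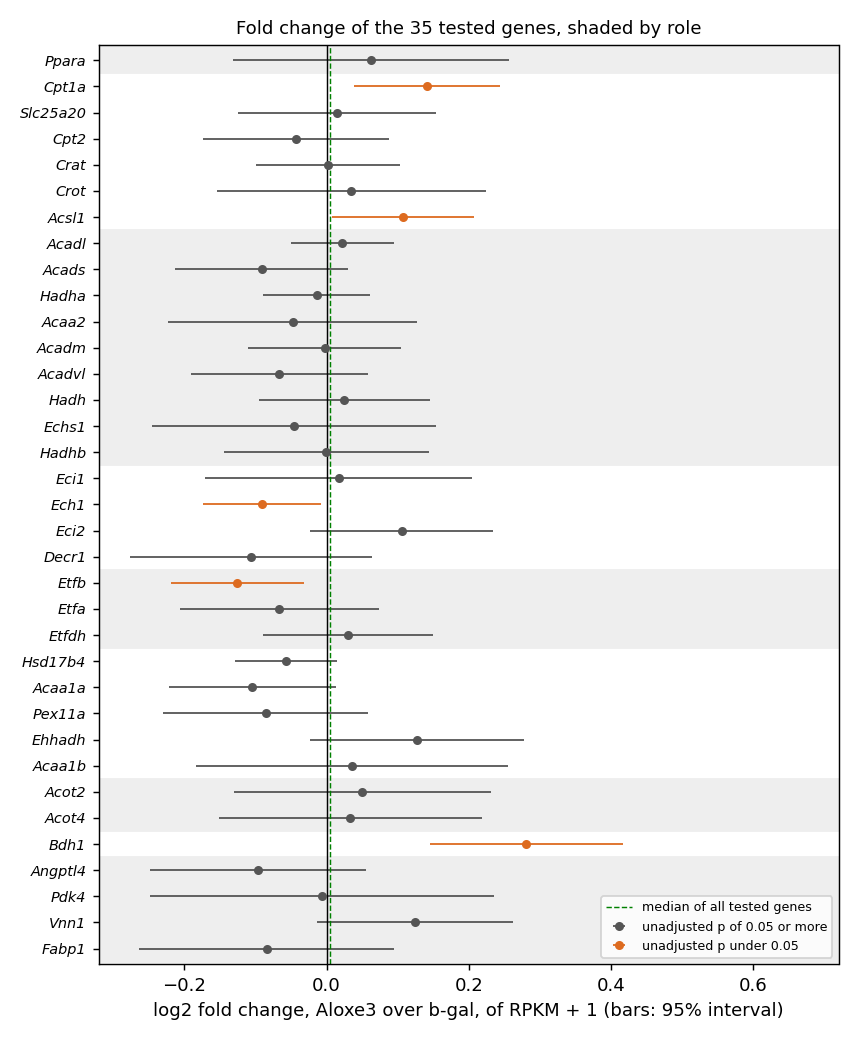
Log2 fold change of Aloxe3 over b-gal (x axis, on RPKM + 1) for the 35 tested genes (y axis, shaded by role), with points for the estimates, bars for the 95% interval and a dashed line for the median of all tested genes. The points spread from -0.13 to 0.28 around 0, and the interval is clear of 0 in 5 genes (orange).

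Levels differed far more between genes than between groups. By mean over all libraries, Acadl, long-chain acyl-CoA dehydrogenase, was the most abundant at 56 RPKM, ahead of Acads at 51.3 RPKM and Hadha at 42.6 RPKM. In all, 17 genes had at least 10 RPKM, 15 had from 1 to 10 RPKM, and 6 were below 1 RPKM (Hadhb, Acaa1b, Acot4, Fgf21, Acot1 and Acot3). Summed over the 38 genes, the libraries held 578, 585 and 585 RPKM with b-gal and 593, 579 and 545 RPKM with Aloxe3. The Aloxe3 libraries included both the highest sum, replicate 7, and the lowest, replicate 9.

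**Figure D2:**
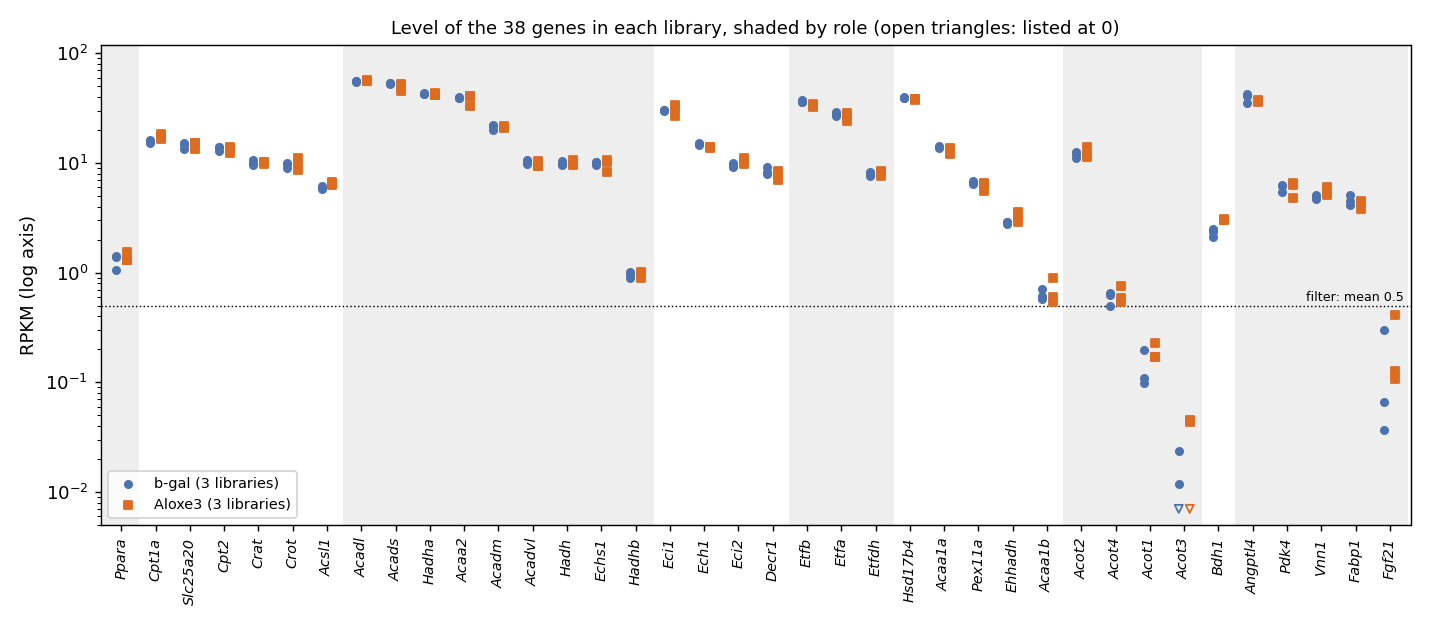
RPKM of the 38 genes (x axis, shaded by role) in each library on a log axis, with circles for the 3 b-gal libraries, squares for the 3 Aloxe3 libraries and open triangles where a gene was listed at 0. The circles and squares of most genes overlap, while levels range from 56 RPKM for Acadl to 0.0208 RPKM for Acot3.

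Ppara, the receptor itself, had 1.41, 1.399 and 1.06 RPKM with b-gal and 1.55, 1.31 and 1.29 RPKM with Aloxe3. The groups overlapped. The log2 fold change was 0.06 ± 0.08 (SE, 95% interval -0.13 to 0.26), and it turned to -0.01 without b-gal replicate 3. Of the 22 tested of 23 partners and co-regulators of PPARa, 5 had log2 fold changes below 0 (22.7%, where 47.6% of all tested genes were below 0). These 22 had 0 genes past the adjusted threshold with limma and 0 with voom, and 1 higher at an unadjusted p under 0.05 (4.55%, where 7.31% of all were higher). Among them Nr1h4, the bile acid receptor FXR, had 3.97, 5.48 and 5.48 RPKM with b-gal and 6.58, 5.93 and 6.14 RPKM with Aloxe3 (limma adjusted p = 0.33), with every Aloxe3 library above every b-gal library. Its log2 fold change was 0.28, and 0.16 without b-gal replicate 1. Sirt1, a deacetylase of fasting, had a log2 fold change of 0.15 ± 0.07 (SE; limma adjusted p = 0.41).

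The group of fatty acid activation and carnitine acyltransfer held 2 of the 3 genes that were higher at an unadjusted p (2 of its 6 genes, 33.3%, where 7.31% of all tested genes were higher). Cpt1a, carnitine palmitoyltransferase 1 and the gate of the pathway (chr19:3322334-3385733, GRCm38), had 15.2, 15.7 and 16.2 RPKM with b-gal and 18.2, 17.4 and 16.7 RPKM with Aloxe3. Every Aloxe3 library was above every b-gal library, and the nearest values, b-gal replicate 3 and Aloxe3 replicate 9, were 16.2 and 16.7 RPKM. This gave a log2 fold change of 0.14 ± 0.04 (SE, 95% interval 0.04 to 0.24), with an adjusted p of 0.29 by limma.

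Acsl1, which activates long-chain fatty acids to acyl-CoA, had 5.81, 5.97 and 6.10 RPKM with b-gal against 6.68, 6.59 and 6.23 RPKM with Aloxe3. Again the groups did not overlap, as for 4 tested members on the high side in all (Bdh1, Cpt1a, Acsl1 and Vnn1; 11.4%, where 11.2% of all tested genes had every Aloxe3 library above every b-gal library). The log2 fold change of Acsl1 was 0.11 ± 0.04 (SE; limma adjusted p = 0.36).

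The other genes of this group gave no such pattern. Slc25a20, the carnitine-acylcarnitine carrier, Cpt2, which returns the acyl group to CoA, and Crat and Crot, the short-chain and medium-chain carnitine acyltransferases, had means of 9.71 to 14.5 RPKM and log2 fold changes of -0.04 to 0.03. Their groups all overlapped. In total 1 of the 6 genes of activation and carnitine acyltransfer had a log2 fold change below 0 (16.7%, where 47.6% of all tested genes were below 0), with a median of 0.02. Without Aloxe3 replicate 9, 0 of the 6 were below 0 (where 43.4% of all were) and the median was 0.09.

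Differences in the mitochondrial spiral were small. Of its 9 genes, 7 had log2 fold changes below 0 and 2 above, from -0.09 for Acads to 0.03 for Hadh, the short-chain hydroxyacyl-CoA dehydrogenase, and all 9 overlapped between groups. Those below 0 made up 77.8%, where 47.6% of all tested genes were below 0, but without Aloxe3 replicate 9 they were 4 of 9 (44.4%, where 43.4% of all were). Acadl had 55.9, 56.0 and 54.8 RPKM with b-gal and 56.9, 56.5 and 56.0 RPKM with Aloxe3. The spread within a group was at most 0.68 RPKM (SD, n = 3), and the 95% interval of the fold change was -0.05 to 0.09.

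Acads, the short-chain dehydrogenase, had 52.1, 53.5 and 53.1 RPKM with b-gal and 52.5, 50.7 and 45.8 RPKM with Aloxe3. The low value was that of Aloxe3 replicate 9. With that library the log2 fold change was -0.09 ± 0.05 (SE), and it was -0.03 without it. Acaa2, the last thiolase of the spiral, and Echs1, the short-chain hydratase, also had their lowest values there, 33.2 and 8.21 RPKM, against 38.8 to 40.7 RPKM and 9.61 to 10.6 RPKM in the other libraries. Acadvl and Acadm, the very-long-chain and medium-chain dehydrogenases, had log2 fold changes of -0.07 and -0.0028. Acadvl shared 42.9% of its exon bases with Dvl2 on the opposite strand, and use of strand in the counting is not stated. Only reads that fell unambiguously in 1 gene were counted, so without strand the reads over the shared bases would be left out of both genes.

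Hadha and Hadhb encode the alpha and beta subunits of one mitochondrial enzyme, the trifunctional protein, and their RefSeq starts lie head to head on chromosome 5, 273 bases apart. Hadha had 42.4, 42.7 and 43.4 RPKM with b-gal and 43.3, 42.0 and 41.9 RPKM with Aloxe3. Hadhb had 0.902, 1.02 and 0.969 RPKM with b-gal and 1.01, 0.893 and 0.987 RPKM with Aloxe3. Neither differed between groups beyond its spread, with log2 fold changes of -0.01 ± 0.03 and -0.00027 ± 0.06 (SE), but the level of Hadha per length was 44.2 times that of Hadhb.

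Only reads with 1 placement were counted, and of the 1376 windows of 50 bases in the Hadhb coding sequence, 89.1% occurred also in the transcript of the pseudogene Gm13910 on chromosome 2, where a read of 50 bases could not be placed. Over all annotated Hadhb transcripts, untranslated bases included, this share was 18.1%. Gm13910 itself had 0.166 to 0.503 RPKM. To show what such a read looks like, and for a pair of peroxisomal and a pair of thioesterase genes described further on, 1 window of the longest identical stretch of each pair is given from the GENCODE M21 transcripts:
Hadhb and Gm13910: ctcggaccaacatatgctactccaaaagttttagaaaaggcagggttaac
Acaa1a and Acaa1b: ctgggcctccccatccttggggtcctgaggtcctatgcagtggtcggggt
Acot1 and Acot2: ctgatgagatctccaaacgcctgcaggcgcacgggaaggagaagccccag
The windows run over coding bases 1060 to 1109 of Hadhb, 886 to 935 of Acaa1a and 998 to 1047 of Acot1. The identical stretches are 682, 327 and 273 bases long. Levels of these genes per length are therefore uncertain, while fold changes compare the same countable bases in both groups.

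Of the 4 auxiliary enzymes, which prepare unsaturated chains for the spiral, 0 passed the adjusted threshold and 1, Ech1, was lower at an unadjusted p (25%, where 5.42% of all tested genes were lower). Ech1, dienoyl-CoA isomerase, had 15.0, 15.1 and 14.5 RPKM with b-gal and 14.03, 13.64 and 14.03 RPKM with Aloxe3. Its groups did not overlap, as for 3 tested members on the low side (Etfb, Ech1 and Hsd17b4; 8.57%, where 8.71% of all tested genes had every Aloxe3 library below every b-gal library). The log2 fold change of Ech1 was -0.09 ± 0.04 (SE; limma adjusted p = 0.36).

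Eci2, an enoyl-CoA isomerase found in peroxisomes as well, had 9.55, 9.89 and 9.14 RPKM with b-gal and 10.1, 11.1 and 9.72 RPKM with Aloxe3. The groups overlapped in b-gal replicate 2 and Aloxe3 replicate 9, and the log2 fold change was 0.11 ± 0.06 (SE). Eci1, its mitochondrial counterpart, spread from 26.6 to 34.0 RPKM over the Aloxe3 libraries against 30.0 to 30.7 RPKM with b-gal. Decr1, dienoyl-CoA reductase, had the lowest value in Aloxe3 replicate 9, 6.94 RPKM, and a log2 fold change of -0.11 ± 0.07 (SE).

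Electrons from the dehydrogenases pass to ubiquinone through the electron transfer flavoprotein. Etfb, its beta subunit (chr7:43444083-43457800), had 36.2, 35.6 and 37.7 RPKM with b-gal and 34.6, 33.3 and 32.2 RPKM with Aloxe3. Every Aloxe3 library was below every b-gal library. With a log2 fold change of -0.13 ± 0.04 (SE, 95% interval -0.22 to -0.03; limma adjusted p = 0.29), it was the gene with the lowest fold change of the 35. Etfa, the alpha subunit, and Etfdh, the dehydrogenase that takes up the electrons, had log2 fold changes of -0.07 and 0.03, with overlapping groups.

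**Figure D3:**
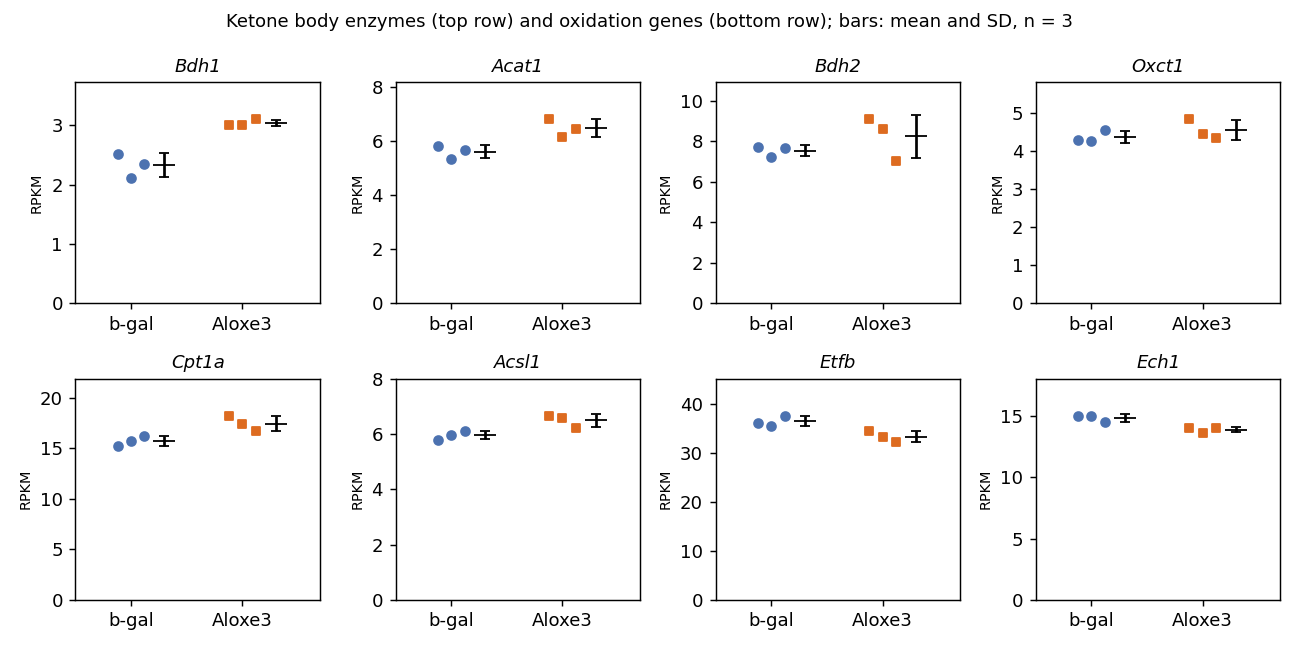
RPKM (y axis from 0) by group (x axis) for 4 ketone body enzymes in the top row and 4 oxidation genes in the bottom row, with 1 point per library and the mean and SD of 3 libraries beside the points. Bdh1 goes from 2.11 to 2.52 RPKM with b-gal to 3.00 to 3.11 RPKM with Aloxe3, and the groups of Bdh2 and Oxct1 overlap.

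The highest fold change among the 35 tested genes was that of the ketone body enzyme. Bdh1, which interconverts acetoacetate and beta-hydroxybutyrate in mitochondria (ENSMUSG00000046598, chr16:31422280-31458901), had 2.52, 2.11 and 2.36 RPKM with b-gal and 3.01, 3.00 and 3.11 RPKM with Aloxe3. All Aloxe3 libraries were above all b-gal libraries, and the Aloxe3 libraries differed among themselves by less (SD 0.0574 against 0.207 RPKM, n = 3 each). The mean was 1.31 times that with b-gal. Its log2 fold change was 0.28 ± 0.06 (SE, 95% interval 0.15 to 0.42), and its adjusted p was 0.138 with limma, 0.189 or more with any library left out, and 0.04 with voom. These values rest on 260 to 347 reads in each library. An antisense gene, Gm15743, covers 13.7% of the Bdh1 exon bases, and if strand was not used, reads over these bases would be left out of both counts.

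Acat1, the thiolase that joins acetyl-CoA units, is not among the 38 genes. It had 5.81, 5.33 and 5.66 RPKM with b-gal and 6.80, 6.14 and 6.43 RPKM with Aloxe3 (log2 fold change 0.18 ± 0.05, SE; limma adjusted p = 0.26), with no overlap of the groups. Bdh2, a relative of Bdh1, had 7.71, 7.23 and 7.68 RPKM with b-gal and 9.09, 8.59 and 7.05 RPKM with Aloxe3, where replicate 9 was the lowest of the 6 libraries. Its groups overlapped, with a log2 fold change of 0.11 ± 0.08 (SE), from 0.04 without Aloxe3 replicate 7 to 0.20 without replicate 9. Oxct1, which reactivates acetoacetate for use as fuel, had 4.27 to 4.85 RPKM over the 6 libraries and overlapping groups.

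None of the 5 peroxisomal genes passed the adjusted threshold or an unadjusted p of 0.05. Ehhadh, the bifunctional enzyme of the straight-chain route, had 2.79, 2.90 and 2.89 RPKM with b-gal and 3.57, 3.22 and 2.90 RPKM with Aloxe3, so only Aloxe3 replicate 9 fell among the b-gal libraries. Its log2 fold change was 0.13 ± 0.06 (SE), 0.18 without that replicate and 0.07 without Aloxe3 replicate 7. Hsd17b4, the bifunctional enzyme of the branched-chain route, had 39.6, 39.1 and 39.2 RPKM with b-gal and 37.93, 37.97 and 37.26 RPKM with Aloxe3. Although its groups did not overlap, the difference of the means was small, with a log2 fold change of -0.06 ± 0.03 (SE; 95% interval -0.13 to 0.01).

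Acaa1a and Acaa1b encode the peroxisomal thiolases. Acaa1a had 13.9, 13.7 and 14.4 RPKM with b-gal and 13.7, 13.1 and 12.1 RPKM with Aloxe3, with a log2 fold change of -0.10 ± 0.05 (SE). Acaa1b had 0.616, 0.707 and 0.569 RPKM with b-gal and 0.899, 0.536 and 0.598 RPKM with Aloxe3, on 31 to 45 reads. Its high value in Aloxe3 replicate 7 set its direction, since the log2 fold change was 0.04 with all libraries and -0.06 without that one. The genes share 37.9% of the 50-base windows of their coding sequences, such as the one shown above, and over all annotated transcripts 12.4% of the Acaa1a windows occur in Acaa1b and 30.5% of the Acaa1b windows in Acaa1a. For Pex11a, which drives peroxisome division, the log2 fold change of -0.09 ± 0.06 (SE) became -0.02 without Aloxe3 replicate 9.

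On the lists beyond the 38, no other peroxisomal gene changed past the adjusted threshold (0 of 30 tested with limma, 0 with voom; 2 higher and 2 lower at an unadjusted p, each 6.67%, where 7.31% of all tested genes were higher and 5.42% lower). Pex10, a peroxisomal import factor, differed by -0.16 ± 0.05 and Pex5, the import receptor, by -0.14 ± 0.05 (log2 fold changes with SE). Of 13 tested further genes of fatty acid uptake and activation, 0 passed with limma or voom, while 3 were higher (23.1%, where 7.31% of all were) and 1 lower (7.69%, where 5.42% of all were) at an unadjusted p. Cd36, a fatty acid translocase, had 0.513, 0.675 and 0.525 RPKM with b-gal and 0.838, 0.787 and 0.935 RPKM with Aloxe3 (log2 fold change 0.24 ± 0.07, SE; limma adjusted p = 0.28), which was 0.51 with 0.1 added to RPKM and 0.58 with voom. Slc27a2, a very-long-chain acyl-CoA synthetase, had a log2 fold change of 0.20 ± 0.06 (SE). Of 19 tested further mitochondrial oxidation genes, 0 passed with limma or voom and 1 was higher at an unadjusted p (5.26%, where 7.31% of all were), and the smallest p values were those of Etfbkmt, a methyltransferase acting on Etfb, at 0.20 ± 0.09, and Pdk2, a pyruvate dehydrogenase kinase, at 0.17 ± 0.08 (log2 fold changes with SE). Without b-gal replicate 1 these were 0.10 and 0.09.

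The acyl-CoA thioesterases, which release free fatty acids again, sit side by side on chromosome 12. Acot2, the mitochondrial form, was the only abundant one, with 12.2, 12.5 and 11.1 RPKM with b-gal and 11.3, 11.9 and 13.97 RPKM with Aloxe3. Its log2 fold change was 0.05 ± 0.08 (SE), and -0.03 without Aloxe3 replicate 9. Acot4, a peroxisomal form, had 0.494, 0.627 and 0.647 RPKM with b-gal and 0.750, 0.590 and 0.543 RPKM with Aloxe3.

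Acot1, the cytosolic form, had 0.0994, 0.198 and 0.108 RPKM with b-gal and 0.226, 0.169 and 0.170 RPKM with Aloxe3, on 5 to 10 reads. The groups overlapped, and no test was made below the filter. Acot3, another peroxisomal form, was at or under the floor of 3 reads in every library, with 2, 1 and 0 reads with b-gal and 3, 0 and 3 reads with Aloxe3, so no fold change is given. Of the 50-base coding windows of Acot1, 43.6% occur in Acot2 also, which lowers what could be counted. Of those of Acot4, 66.4% occur in some other gene, mostly (55.8%) 4732463B04Rik, an antisense gene over Acot4 exons on the opposite strand. Reads over these antisense bases would be left out of both counts if strand was not used. Over all annotated transcripts, 13.6% of the Acot1 windows occur in Acot2 and 13.4% of the Acot4 windows in some other gene. The order of the levels of Acot1, Acot3 and Acot4 is therefore uncertain, while Acot2 stood far above them.

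Among the remaining targets of PPARa, Angptl4, a secreted inhibitor of lipoprotein lipase, was the most abundant, with 42.5, 40.5 and 35.4 RPKM with b-gal and 36.8, 35.7 and 37.8 RPKM with Aloxe3. The b-gal libraries spread more widely than the Aloxe3 libraries, which lay among them. Pdk4, the kinase that shuts pyruvate dehydrogenase in fasting, had 5.40, 6.29 and 6.11 RPKM with b-gal and 6.35, 6.63 and 4.83 RPKM with Aloxe3. Its log2 fold change was -0.0067 ± 0.10 (SE) and turned to 0.11 without Aloxe3 replicate 9.

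Vnn1, a pantetheinase that recycles the vitamin part of CoA, had 4.73, 5.09 and 5.01 RPKM with b-gal and 6.00, 5.32 and 5.14 RPKM with Aloxe3. Its groups did not overlap, and the log2 fold change was 0.12 ± 0.06 (SE; limma adjusted p = 0.43), or 0.07 without Aloxe3 replicate 7. Fgf21, the fasting hormone of liver, had 2, 9 and 1 reads with b-gal and 3, 3 and 10 reads with Aloxe3. At 0.0364 to 0.407 RPKM it was below the filter, with overlapping groups, and a difference was not detectable at this depth.

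Fabp1, the liver fatty acid binding protein, had 3.83 to 5.07 RPKM over the 6 libraries and a log2 fold change of -0.08 ± 0.08 (SE), with overlapping groups. Of 22 tested further PPARa targets, 0 passed the adjusted threshold with limma and 2 with voom (9.09%, where 1.37% of all genes passed). At an unadjusted p 2 were higher (9.09%, where 7.31% of all were) and 1 lower (4.55%, where 5.42% of all were). Vnn3, a relative of Vnn1, had 9.21, 11.4 and 10.5 RPKM with b-gal and 16.5, 15.8 and 13.4 RPKM with Aloxe3, with a log2 fold change of 0.51 ± 0.09 (SE; limma adjusted p = 0.087). Plin2, the lipid droplet coat protein, had 708, 692 and 693 RPKM with b-gal and 642, 612 and 565 RPKM with Aloxe3 (log2 fold change -0.20 ± 0.05, SE; limma adjusted p = 0.24). Both had groups that did not overlap, in opposite directions, and these were the 2 past the threshold with voom. The omega-hydroxylase Cyp4a14, a target that responds strongly to PPARa agonists in mouse liver, averaged 0.00864 RPKM, and Cyp4a10 0.143 RPKM.

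The response element of PPARa is a direct repeat of the half-site with 1 base between, AGGTCANAGGTCA. The 250 bases before RefSeq starts (GRCm38.p6) were searched on both strands, for 32 of the 38 genes with 35 starts. With up to 2 mismatches, 4 of the 35 stretches held the repeat (11.4%, where 3.24% of all 32851 did), and the half-site AGGTCA was in 6 (17.1%, where 14.02% of all held it). A full repeat also holds half-sites, so the searches overlap. The 4 elements are shown because they are the closest matches among these genes, with capitals for bases that match the repeat:
Fabp1: AGGcCAtAGGTCA
Acot4: cGGcCAaAGGTCA
Echs1: AGGTCAcgGGTCc
Etfa: AGGgCAaAGGTaA
Fabp1 had 1 mismatch and the others 2. None of these 4 genes passed even an unadjusted p of 0.05, with log2 fold changes of -0.08, 0.03, -0.05 and -0.07. A match describes letters only and is not a binding site.

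For the target with the closest match and for the 2 genes with the smallest p, the bases before the GENCODE exon at the RefSeq start are shown on the plus strand of GRCm38.p6, with capitals for the repeat or half-site, which reads as TGACCT on this strand:
Fabp1 (chr6:71199629-71199826): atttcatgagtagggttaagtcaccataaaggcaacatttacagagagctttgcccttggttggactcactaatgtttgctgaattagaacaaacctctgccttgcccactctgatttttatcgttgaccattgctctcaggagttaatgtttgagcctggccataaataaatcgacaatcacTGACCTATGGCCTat
Cpt1a (chr19:3323051-3323284): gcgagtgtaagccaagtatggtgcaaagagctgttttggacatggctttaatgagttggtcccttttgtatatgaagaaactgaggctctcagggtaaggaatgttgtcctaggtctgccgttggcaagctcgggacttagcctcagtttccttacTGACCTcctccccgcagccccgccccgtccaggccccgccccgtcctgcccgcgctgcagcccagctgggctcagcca
Bdh1 (chr16:31422047-31422279): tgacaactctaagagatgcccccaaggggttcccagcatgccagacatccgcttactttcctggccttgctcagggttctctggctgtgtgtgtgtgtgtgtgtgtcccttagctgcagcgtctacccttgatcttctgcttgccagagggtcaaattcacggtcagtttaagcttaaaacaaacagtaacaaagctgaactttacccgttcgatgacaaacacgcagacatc
Cpt1a held 1 half-site and Bdh1 none in this window. The Cpt1a stretch lies inside the annotated gene, in an intron of a longer GENCODE transcript that starts further upstream.

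The libraries of each group differed among themselves. Relative to the b-gal mean, the median of the 35 genes was 0.03 in Aloxe3 replicate 7, 0.01 in replicate 8 and -0.05 in replicate 9 on the log2 scale. The b-gal libraries themselves had -0.03 in replicate 1 and 0.02 in replicates 2 and 3 (SD 0.028, n = 3), while over all tested genes the Aloxe3 medians were 0.01, 0.02 and -0.01. Aloxe3 replicate 9 was the lowest of the 6 libraries in 15 of the 35 genes (42.9%, where it was the lowest in 30.0% of all tested genes) and b-gal replicate 1 in 9 (where it was the lowest in 21.7% of all). Aloxe3 replicate 7 was the highest in 13 (37.1%, where it was the highest in 17.0% of all).

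Leaving out any 1 of the 6 libraries moved the log2 fold change by at most 1.5 times in 6 of the 35 genes (Bdh1, Cpt1a, Acsl1, Etfb, Ech1 and Hsd17b4), and for the other 29 at least 1 library moved it by more or turned its sign. The rule is relative, so genes near 0 fail it on small shifts, such as Acadl (0.022 with all libraries, 0.012 to 0.028 with 1 left out). Apart from Hsd17b4, the 6 are the genes past an unadjusted p of 0.05, so this is not separate support. The share of all tested genes is not given. Without Aloxe3 replicate 9, 7 genes were higher at an unadjusted p under 0.05 (20%, where 7.46% of all tested genes were) and 2 were lower (5.71%, where 4.78% were). The 4 genes added were Ehhadh, Eci1, Eci2 and Vnn1. The median log2 fold change became 0.03, and 14 of 35 genes (40%) were below 0, where 43.4% of all tested genes were. No gene passed the adjusted threshold in this setting either, the smallest adjusted p being 0.26 (limma). Leaving out the library where these genes were most often lowest raises their fold changes by construction. Without Aloxe3 replicate 7, where they were most often highest, 2 genes were higher and 3 lower at an unadjusted p under 0.05. The median was then -0.029, and 25 of 35 genes were below 0. Shares of all tested genes are not given for that setting.

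**Figure D4:**
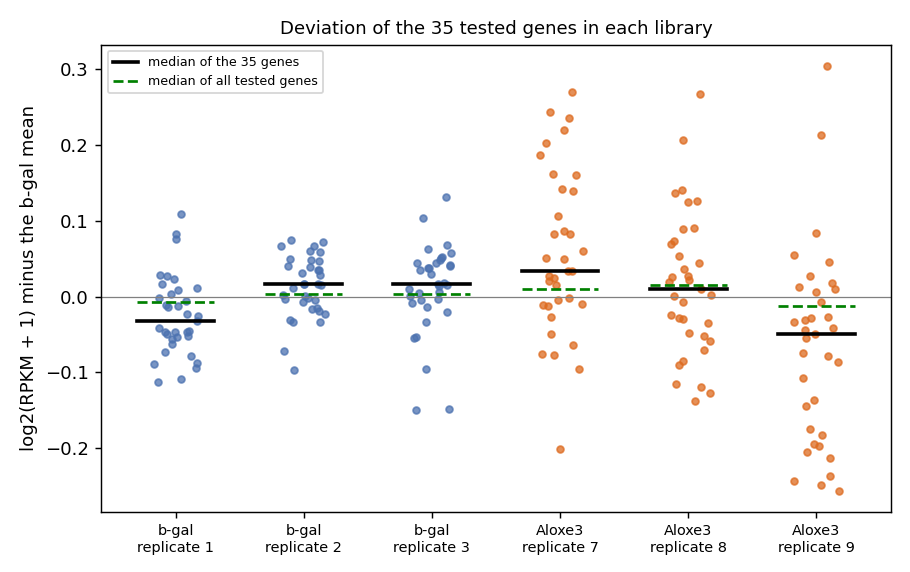
Difference of log2(RPKM + 1) from the b-gal mean (y axis) for the 35 tested genes (points) in each of the 6 libraries (x axis), with solid bars for the median of the 35 genes and dashed bars for the median of all tested genes. Aloxe3 replicate 9 has its median at -0.05 and replicate 7 at 0.03. The b-gal libraries are part of the mean they are set against, so their points lie closer to 0 by construction.

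Spread within the groups was wider with Aloxe3, both for these genes and for all genes, and this difference was not tested. The coefficient of variation over libraries had a median of 4.26% with b-gal and 6.61% with Aloxe3 over the 35 genes, against 4.50% and 5.98% over all tested genes. It was higher with Aloxe3 in 27 of the 35 (77.1%, where it was higher in 61.5% of all tested genes). The typical difference between groups was no larger than its SE, with a median absolute log2 fold change of 0.0575 and a median SE of 0.0593 for the 35 genes. Over all tested genes the median absolute log2 fold change was 0.057.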

How the data were processed

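RNA was poly-A selected, and single reads of 50 bases were sequenced. Per the labels and the study's methods, the authors aligned them with STAR 2.0.4b (GRCm38.p2), counted uniquely placed reads per gene with featureCounts 1.4.5 and deposited RPKM values. The step from counts to RPKM is not given in the sources used here. Reads were recovered from the steps of the values (tolerance 0.02 reads) and their sum made up 99.9% of each library. For 8441 of 24989 genes above 0, the smallest length giving whole reads was used, so their reads are known up to a common factor.

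Symbols and coordinates came from GENCODE M21 (40340 identifiers matched, 1048 did not). Genes averaging 0.5 RPKM or more (12693) were tested on log2(RPKM + 1) with limma 3.58.1 in R 4.3.3 (a linear model per gene, moderated with a mean-variance trend), and p-values were adjusted over all of them by Benjamini-Hochberg. The code was checked on simulated reads, with a set spread (dispersion 0.003). Of 50 genes changed 1.25 times, 12 were called at an adjusted p under 0.05. Of 50 changed 1.5 times, 39 were called, and 11 unchanged genes were called as well. Members and lists were chosen with earlier results of these data known. Values per library are given for Ppara, the 12 members with the smallest p, the 3 most abundant, the Acot and Acaa1 genes, Pdk4 and Fgf21, and of each further list the 2 genes with the smallest p are named. The Cyp4a genes were named after their values were seen. Some genes of the further lists are not reported here, so counts of those lists cover the genes that are.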

Additional observations from a re-analysis of the deposited data

How the results depend on the processing

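The settings tried were a pseudocount of 0.1, no filter, a filter at 5 RPKM, the same median, quantile normalization, eBayes without trend, voom on derived reads and each library left out. The count of members past an adjusted p of 0.05 was 0 in all of them except voom, where it was 1 (Bdh1). Members higher at an unadjusted p numbered 3, but 2 with the filter at 5 RPKM, and from 2 to 7 with a library left out (7 without Aloxe3 replicate 9). Members lower numbered 2, but 3 with no filter, 3 with the same median, 1 with quantile normalization, 1 with eBayes without trend and 1 with voom, and from 1 to 3 with a library left out. Members with a fold change below 0 numbered 18, and from 16 to 20 in the other settings. With a library left out they numbered from 14 (without Aloxe3 replicate 9) to 25 (without Aloxe3 replicate 7). The median log2 fold change ran from -0.029 (without b-gal replicate 1 or Aloxe3 replicate 7) to 0.028 (without Aloxe3 replicate 9) with a library left out. Among the further pathway genes reported here, the number past the threshold was 0, but 1 with the filter at 5 RPKM (Vnn3), where Bdh1 was not tested, and 2 with voom (Plin2 and Vnn3). The cause of these shifts was not tested. Of 393 further gene values, 379 kept direction and call, 4 gained the call (Bdh1, Vnn3 and Plin2) and 10 turned direction, all in members far from the threshold. With quantile normalization Acot4 turned to -0.0051 and Acaa1b to -0.0026. With a library left out, log2 fold changes ran from -0.012 to 0.101 for Ppara (lowest without b-gal replicate 3), -0.031 to 0.108 for Acot2 (lowest without Aloxe3 replicate 9), -0.0197 to 0.071 for Acot4 and -0.057 to 0.096 for Acaa1b (both lowest without Aloxe3 replicate 7), and -0.081 to 0.114 for Pdk4 (above 0 without b-gal replicate 2 or 3 or Aloxe3 replicate 9). No paired analysis was possible because the groups share no replicate number. The Aloxe3 call kept its direction and side throughout. Genes on few reads (Acot1, Acot3, Fgf21) are limited by depth.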
